A study of Mus musculus with 20 samples.

Results

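The genes described here are 9 chemokines and chemokine receptors of mouse spinal cord, read by symbol from a count table of 16003 genes in 21016 cells. They are 6 ligands of the CC family (*Ccl2*, *Ccl12*, *Ccl3*, *Ccl4*, *Ccl6* and *Ccl9*), 2 CC receptors (*Ccr1* and *Ccr2*) and the CX3C receptor *Cx3cr1*, and all 9 were found. Single-cell libraries were made from female C57BL/6J mice aged 8 to 10 weeks, bought from Jackson Laboratory. Mice had a T9 laminectomy alone (sham) or a 75 kdyne contusion of the cord at T9, and injured cords were taken at 7 or 28 days post-injury (dpi). The sham label names days 7 and 28 together, so a sham library has no single day. From 2 weeks before surgery until the end point mice ate vehicle chow or chow with 1200 ppm PLX5622, an inhibitor of the CSF1 receptor that depletes microglia, so the microglia of a PLX5622 library are those still present under the drug. Each of the 6 libraries (vehicle or PLX5622, each as sham, 7 dpi and 28 dpi) was 1 pool of cells from 3 to 4 mice, taken from 1 cm of unperfused cord with its meninges. Blood leukocytes could therefore be among the cells. The series also has 14 bulk samples, which were not analysed here.

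Chemokines are small secreted proteins that direct the movement of leukocytes by binding G protein-coupled receptors on them. CCL2 and CCL12 bind CCR2 and draw monocytes out of the circulation, CCL3, CCL6 and CCL9 bind CCR1, and CCL4 is a close relative of CCL3. CX3CR1, the receptor of the membrane-bound ligand CX3CL1, marks microglia in the healthy cord and is also found on monocytes, where classical cells carry much CCR2 and little CX3CR1.

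The measurement is the number of unique molecular identifiers (UMIs), each standing for 1 captured RNA molecule. For every cluster of a library a gene's UMIs were added up and scaled by the cluster's whole UMI total to CPM. Brackets give exact Poisson 95% intervals for a level, and the interval given with a log2 ratio is the exact conditional binomial one. With 1 library per condition no test between conditions was possible, and no difference below has a replicate check. Intervals cover counting error only, and UMIs of 1 cell are not independent. A gene was counted as higher or lower where its ratio reached 2-fold, provided that both libraries together gave it 20 UMIs or more.

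Libraries held 1795 (vehicle sham), 7439 (vehicle 7 dpi), 9846 (vehicle 28 dpi), 492 (PLX5622 sham), 504 (PLX5622 7 dpi) and 940 (PLX5622 28 dpi) cells, and between 2606149 and 35694246 UMIs. The study's 14 clusters were named here only from 79 markers, of which 76 were detected and 66 were highest in the cluster they stand for. The names therefore mean "microglia-like", "MDM-like" (monocyte-derived macrophages) and so on. The monocyte cluster held its antigen-presentation markers (*H2-Aa*, *H2-Ab1*), but *Ly6c2* and *Chil3*, markers of classical monocytes, were highest in another cluster. Vehicle libraries held 674, 2154 and 3974 microglia (sham, 7 and 28 dpi) and PLX5622 libraries 29, 61 and 126. In all, 44 barcodes occurred in more than 1 library, on 88 cells. *Ccr2* stood among the 10 leading genes of the monocyte cluster, and *Ccl9* and *Ccr1* among its 100 leading genes. *Ccr1* was also among the 100 leading genes of neutrophils, and *Ccl12* and *Cx3cr1* among those of microglia. A contrast between clusters is therefore a description.

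RNA of these genes was also counted in cells not known to make it, and by more after injury. Ependymal cells, which line the central canal, held *Cx3cr1* at 2.54 CPM in vehicle sham, 233 at 7 dpi and 295 at 28 dpi, against 8.10, 10.7 and 63.2 in the PLX5622 libraries. *Ccl6* in ependymal cells was at 5.07, 74.3 and 195 in vehicle libraries and at 0, 0 and 7.59 under PLX5622, and *Ccl3* at 0, 71.4 and 101 and at 0, 3.58 and 5.06. *Ccl4* at 7 dpi with vehicle was at 151 in ependymal cells and 186 in the oligodendrocyte lineage. Vehicle erythroid cells held *Ccl3* at 42.3, 142 and 578. They held *Ccl4* at 91.7 in sham and at 837 at 28 dpi (35 cells), beside 838 in MDMs and 663 in microglia. The part of such RNA in the values of other types was not tested.

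**Figure D1:**
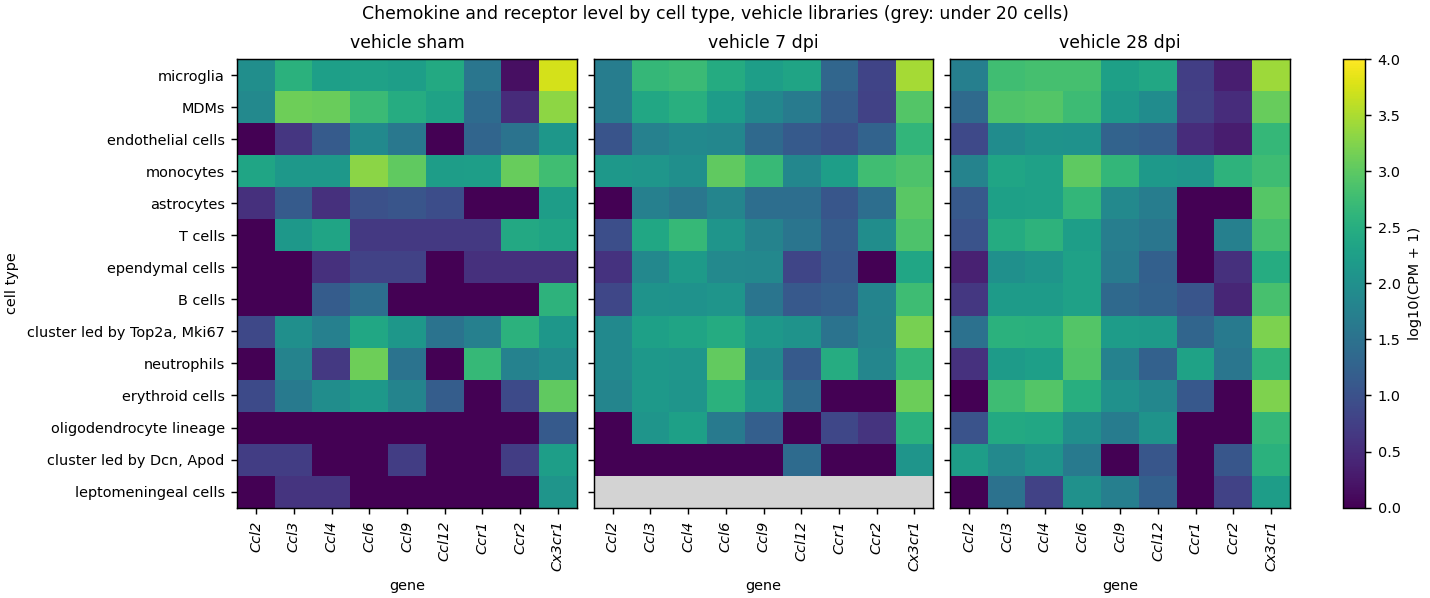
Heat maps of log10(CPM + 1) for the 9 genes (columns) in 14 cell types (rows), with 1 panel for each vehicle library (sham, 7 dpi, 28 dpi). *Ccr2* was brightest in monocytes, *Ccr1* in neutrophils and *Cx3cr1* in microglia in each of the 3 libraries, while the type with the highest *Ccl3* changed from MDMs (sham) to microglia (7 dpi) and back (28 dpi).

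*Ccl2* and *Ccl12*, the ligands that attract monocytes through CCR2, lie 64.391 kb apart on chromosome 11 of GRCm38 (*Ccl2* at chr11:82035571-82037453 and *Ccl12* at chr11:82101845-82103400, both on the plus strand). In microglia *Ccl2* was at 94.5 CPM (81.8–109) in vehicle sham, 49.3 (44.2–54.9) at 7 dpi and 51.6 (46.7–56.8) at 28 dpi. Under PLX5622 it was at 35.3 (5 UMIs), 67.8 (44.3–99.4) and 23.3 (11.2–42.8). The 7 dpi value rests on 26 UMIs, and its log2 ratio to vehicle went from 0.46 to -0.85 without the cell richest in *Ccl2*. The log2 ratio of 7 dpi over sham with vehicle was -0.94 (-1.20 to -0.68), and -0.36 with DESeq2's size factors. MDMs held *Ccl2* at 74.0 (60.6–89.6), 48.6 (45.6–51.8) and 23.1 (20.6–25.8) in the vehicle libraries, so that each later library was lower by more than its counting error. Without the cell richest in *Ccl2*, the MDM log2 ratio of 7 dpi over sham went from -0.61 to -0.30. In monocytes the levels were 224 (183–272), 137 (122–154) and 61.2 (43.5–83.6), but 1 cell carried 74 of the 102 UMIs of the sham value. *Ccl2* RNA sat in few cells elsewhere too. In the PLX5622 28 dpi library all 26 endothelial UMIs came from 1 cell, as did all 16 UMIs of the vehicle 28 dpi library in a cluster led by *Dcn*, *Apod* and *Pi16*, genes of fibroblasts.

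*Ccl12* was held by microglia in every vehicle library at levels within 2-fold of each other. Its values there were 267 CPM (245–290) in sham, 214 (203–225) at 7 dpi and 246 (235–257) at 28 dpi, and the sign of the small difference at 7 dpi depended on scaling (log2 ratio -0.32 by CPM and 0.26 by DESeq2). PLX5622 microglia had 261 (184–360), 193 (152–242) and 400 (343–465), and the 28 dpi value exceeded its vehicle counterpart by 0.70 (0.47 to 0.93) on the log2 scale. MDMs started near microglia in vehicle sham, at 201 (178–226), and stood at 45 (42.1–48.0) at 7 dpi and 85.8 (81.0–90.8) at 28 dpi. As a result MDMs were at -0.41 (-0.62 to -0.20) relative to microglia in sham, at -2.25 (-2.37 to -2.13) at 7 dpi and at -1.52 (-1.63 to -1.42) at 28 dpi on the log2 scale. *Ccl2* did not part the same way, with MDMs at -0.35, -0.02 and -1.16 relative to microglia.

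*Ccl3*, a ligand of CCR1, and *Ccl4*, a related ligand, are 13.228 kb apart and transcribed away from each other (*Ccl3* at chr11:83647844-83649355 on the minus strand, *Ccl4* at chr11:83662584-83664683 on the plus strand). Both were lower in MDMs of the injured vehicle libraries than of sham, and higher in microglia. Microglia held *Ccl4* at 178 CPM (160–197) in vehicle sham, 535 (518–553) at 7 dpi and 663 (645–681) at 28 dpi. The log2 ratio over sham was 1.59 (1.43–1.75) and 1.90 (1.75–2.05), and it was at least as high under either other scaling. *Ccl3* in microglia went the same way by less, at 362 (337–389), 468 (452–485) and 585 (569–602). In MDMs *Ccl3* stood at 1295 (1236–1355) in sham, 250 (243–257) at 7 dpi and 781 (767–796) at 28 dpi. *Ccl4* in MDMs followed, at 1209 (1153–1268), 336 (328–344) and 838 (823–854).

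The order of the types for this pair turned over as a consequence. MDMs exceeded microglia in vehicle sham by 1.84 (1.72–1.96) for *Ccl3* and 2.76 (2.60–2.93) for *Ccl4* on the log2 scale. At 7 dpi they were at -0.91 (-0.97 to -0.84) and -0.67 (-0.73 to -0.61), and at 28 dpi at 0.42 (0.37–0.47) and 0.34 (0.29–0.39). The sham MDMs were 185 cells, against 3023 at 7 dpi and 3313 at 28 dpi, and whether they are the same kind of cell was not tested. T cells also held *Ccl4* in the vehicle libraries, at 220 (168–282), 470 (403–545) and 386 (339–438), and *Ccl3* at 133, 240.5 and 285. In PLX5622 sham microglia *Ccl4* rested on 1 UMI in 29 cells (7.06 CPM, 0.179 to 39.3) and *Ccl3* on 15 UMIs (106 CPM, 59.3 to 175), while PLX5622 injured libraries held *Ccl4* at 347 (290.5–411) and 282 (234–336).

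*Ccl6* and *Ccl9*, both ligands of CCR1, are neighbours on the minus strand, 9.245 kb apart (*Ccl6* at chr11:83587882-83593087, *Ccl9* at chr11:83572919-83578636). Across 66 combinations of cell type and library their log2(CPM + 1) levels had a Pearson r of 0.84, given as a description because combinations of 1 library share its depth and free RNA. Their promoters are shown because of this correlation, although neutrophils held much *Ccl6* and little *Ccl9*. From the RefSeq promoter table (GRCm38.p6), which held 7 of the 9 genes, the 150 bases before and 30 bases from the start were taken, and capitals mark runs of at least 10 letters found in the same order in both.
Ccl6 (chr11:83593058-83593237, minus strand): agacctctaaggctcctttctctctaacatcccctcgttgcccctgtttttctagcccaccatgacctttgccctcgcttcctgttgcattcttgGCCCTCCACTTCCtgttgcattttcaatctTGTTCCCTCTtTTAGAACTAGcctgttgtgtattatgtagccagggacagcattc
Ccl9 (chr11:83578607-83578786, minus strand): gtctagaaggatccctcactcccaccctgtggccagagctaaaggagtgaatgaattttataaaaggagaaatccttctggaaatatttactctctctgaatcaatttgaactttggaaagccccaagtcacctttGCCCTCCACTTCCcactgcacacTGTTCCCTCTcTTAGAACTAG
The 3 shared runs were GCCCTCCACTTCC, TGTTCCCTCT and TTAGAACTAG. Searched on both strands of all 32851 promoters of the table, over the whole length it gives, they were found in 6, 47 and 18 promoters, or 0.0183%, 0.143% and 0.0548%. With the first transcribed base at 0, the runs lie at -55 to -43, -25 to -16 and -14 to -5 in *Ccl6*. In *Ccl9* they lie at -14 to -2, 9 to 18 and 20 to 29. All but the first are therefore before the start in *Ccl6* and in the transcribed part in *Ccl9*. A match is letters in common and not a known binding site.

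Monocytes held the highest *Ccl9* in every vehicle library, at 1042 CPM (951–1140) in sham, 502 (473–533) at 7 dpi and 452 (401–507) at 28 dpi. They held *Ccl6* at 1995 (1867–2129), 1073 (1030–1118) and 1005 (929–1086). Neutrophils shared *Ccl6*, at 1291 (1161–1431), 1095 (1003–1193) and 783 (695–880), but their *Ccl9* was at 32.3, 78.2 and 57.9, so the paired genes parted in this type. At 7 dpi the *Ccl6* levels of neutrophils and monocytes did not differ beyond their intervals. In microglia *Ccl6* was higher at each later time, at 191 (173–210) in sham, 290.2 (278–303) at 7 dpi and 664 (646–682) at 28 dpi. *Ccl9* of the same cells stayed at 175 (157–193), 174 (165–185) and 186 (177–196). MDMs were lower at 7 dpi than in sham for *Ccl6* and back at that level at 28 dpi, with 532 (495–572), 160 (155–166) and 555 (543–568), while their *Ccl9* at 28 dpi lay between the other 2, with 300 (272–330), 70.3 (66.7–74.1) and 139 (133–145). Reads of *Ccl9* may be shared, since 59 of its 2996 transcript 50-mers occur in other genes, whereas none of *Ccl6* do.

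*Ccr1*, the receptor of CCL3, CCL6 and CCL9, had its highest CPM in neutrophils of each vehicle library, with monocytes above microglia and MDMs. It lies at chr9:123962124-123968692 on the minus strand, 133.257 kb from *Ccr2*. Neutrophils held it at 477 CPM (399–565) in vehicle sham, 300.1 (253–354) at 7 dpi and 201 (158–253) at 28 dpi. The PLX5622 28 dpi neutrophils, 32 cells, were at 577 (421–771), above their vehicle counterpart by 1.52 (0.95 to 2.07) on the log2 scale. Monocytes were at 171 (135–214), 171 (154–190) and 125 (99.5–156), the log2 ratio of 28 over 7 dpi being -0.45 (-0.82 to -0.10). In microglia the level went down at each time, from 36.3 (28.6–45.4) to 19.6 (16.4–23.2) and 4.54 (3.18–6.29), and in MDMs likewise from 24.0 (16.6–33.5) to 14.2 (12.6–16.0) and 4.69 (3.62–5.98). The level of PLX5622 microglia rested on 0, 8 and 6 UMIs.

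*Ccr2*, the receptor of CCL2 and CCL12 on classical monocytes, lies at chr9:124101950-124113557 on the plus strand, and 129 of its 6758 transcript 50-mers occur in other genes. Monocytes held it at 1159 CPM (1062–1262) in vehicle sham, 589 (557–622) at 7 dpi and 386 (339–437) at 28 dpi. PLX5622 monocytes were at 761 (659–874) at 7 dpi and 655 (568–751) at 28 dpi, and PLX5622 sham held only 14 monocytes, which were not compared. At 28 dpi the PLX5622 level lay above vehicle by 0.76 (0.49 to 1.04) on the log2 scale. T cells had *Ccr2* at 256 (200–322), 89.2 (61.4–125) and 54.5 (37.7–76.1) in vehicle libraries and at 226, 246 and 209 under PLX5622. Microglia and MDMs were close to the floor, at 0.477, 5.63 and 1.14 in microglia (1, 38 and 9 UMIs) and at 2.12, 5.13 and 2.16 in MDMs. Over all cells *Ccr2* was at 104, 47.8 and 14.1 in vehicle libraries and at 52.2, 62.5 and 83.6 under PLX5622. Monocytes held 6.34%, 6.10% and 2.30% of all UMIs in the vehicle libraries, and were 4.18%, 8.09% and 2.88% of the cells. The log2 ratio of monocyte *Ccr2* over vehicle sham was -0.98 at 7 dpi and -1.59 at 28 dpi. With each cell weighted alike it was -1.01 and -1.62. In cells thinned to 1000 UMIs, which leaves out shallower cells, it was -0.25 and -0.84. The size of the difference therefore depended on this step, and the reason was not tested.

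*Cx3cr1* spans chr9:119901616-120069879 on the minus strand. Microglia held it at 5449 CPM (5350–5550) in vehicle sham, 2918 (2877–2959) at 7 dpi and 2587 (2552–2623) at 28 dpi. PLX5622 microglia stood at 4554 (4209–4919), 2984 (2814–3162) and 3281 (3112–3456). By CPM the level was lower after injury on either diet, although the PLX5622 sham value rests on 29 cells. TMM (edgeR) scaling raised the total of PLX5622 sham microglia from 141635 to 185010. It lowered those at 7 and 28 dpi from 383348 to 341429 and from 429789 to 402450. The size of the PLX5622 differences from sham, smaller with TMM, therefore depended on scaling. At 7 dpi the log2 ratio of PLX5622 over vehicle was 0.03 (-0.05 to 0.12). MDMs held 2122 (2047–2199), 858 (845–870.5) and 1179 (1161–1197) in vehicle libraries and 470 (438–503) and 934 (882–988) in the injured PLX5622 libraries. Monocytes were at 586, 774 and 580. Erythroid cells had *Cx3cr1* at 1051, 1258 and 1698, and astrocytes, which do not make it, at 168, 936 and 874 in vehicle libraries against 17.1, 19.0 and 39.6 under PLX5622.

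**Figure D2:**
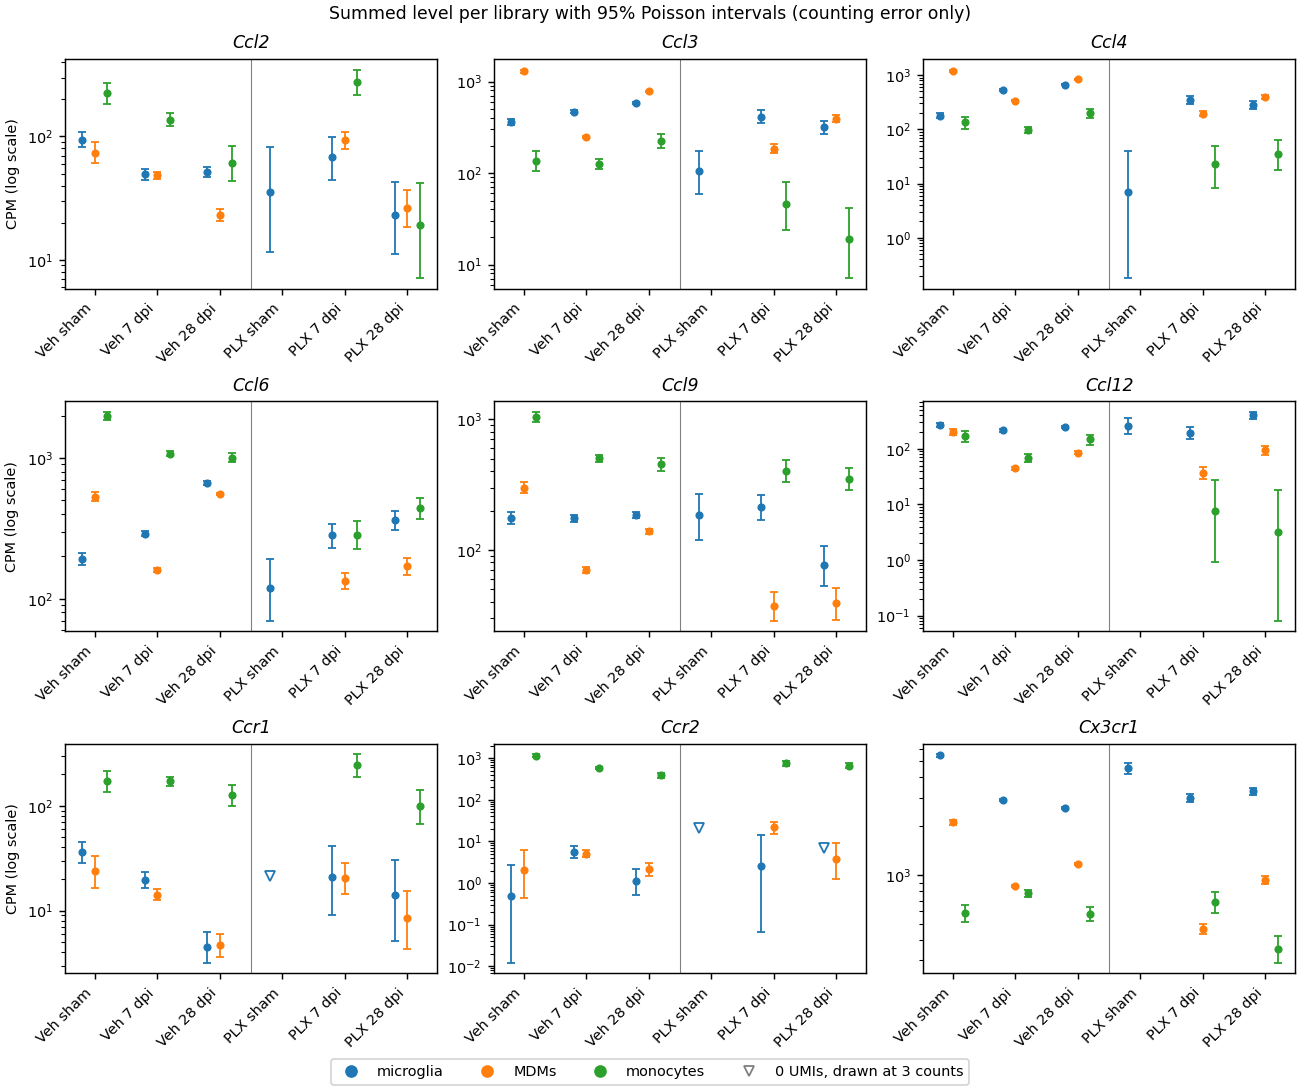
Level of each of the 9 genes (CPM, log axis, 1 panel per gene) in microglia, MDMs and monocytes of the 6 libraries, with exact Poisson 95% intervals, and open triangles for libraries at 0 UMIs drawn at 3 counts. The *Ccl3*, *Ccl4*, *Ccl6*, *Ccl9* and *Ccl12* points of vehicle MDMs dip at 7 dpi, while the *Ccl4* and *Ccl6* points of vehicle microglia rise from sham to 28 dpi.

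Counted over the 9 genes, *Ccl4* and *Ccl6* were higher after injury in microglia, whereas *Ccl9* and *Ccl12* were lower in MDMs. In vehicle microglia at 7 dpi over sham, 2 of 9 were at least 2-fold higher (*Ccl4* and *Ccr2*, the latter 38 UMIs against 1) and 0 at least 2-fold lower. Of the 9797 genes with enough UMIs, 4.8% were that much higher and 26.6% that much lower. At 28 dpi over sham, 2 of 8 were higher (*Ccl4* and *Ccl6*) and 2 lower (*Ccr1* and *Cx3cr1*), against 4.63% and 16.5% of 10054 genes. *Ccr1*, at -3.00 (-3.61 to -2.41), had moved furthest of these 8. Between 7 and 28 dpi *Ccl6* was higher, by 1.19 (1.12–1.27), and *Ccr1* and *Ccr2* lower, at -2.11 (-2.68 to -1.57) and -2.31 (-3.54 to -1.24), against 2.73% and 0.925% of 10373 genes.

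In vehicle MDMs at 7 dpi over sham, 6 of 9 were at least 2-fold lower and 1 higher, against 15.4% and 5.1% of 10670 genes. The 6 were *Ccl3* at -2.37 (-2.45 to -2.30), *Ccl12* at -2.16, *Ccl9* at -2.09, *Ccl4* at -1.85, *Ccl6* at -1.73 and *Cx3cr1* at -1.31. All 6 were still past 2-fold lower with TMM and DESeq2 factors. The gene that was higher, *Ccr2* at 1.28 (-0.31 to 3.58), had 3 UMIs in sham and changed sign when cells were thinned to 1000 UMIs. At 28 dpi over sham, 4 of 9 were lower (*Ccl2*, *Ccl9*, *Ccl12* and *Ccr1*) and 0 higher, against 9.45% and 3.15% of 10302 genes. With TMM factors *Ccl9* (-0.83) and *Ccl12* (-0.94) were no longer past 2-fold. Between 7 and 28 dpi *Ccl3*, *Ccl4* and *Ccl6* were higher, by 1.64 (1.60–1.69), 1.32 (1.27–1.36) and 1.79 (1.73–1.85). *Ccl2*, *Ccr1* and *Ccr2* were lower, at -1.07, -1.60 and -1.25. Of 11211 genes 5.41% were at least 2-fold higher and 5.66% lower in that comparison. The median log2 ratio of the 9 genes in MDMs was -1.73 at 7 dpi over sham, beside -0.30 for all genes, and 0.93 between 7 and 28 dpi, beside 0.02.

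Comparisons with sham carry a shift of the whole library. The median of all genes was at -0.60 and -0.47 in microglia and at -0.30 and -0.27 in MDMs (7 and 28 dpi). With TMM factors it was at -0.05 in microglia at 7 dpi, and the split of all genes past 2-fold there went from 4.8% higher and 26.6% lower to 10.8% and 8.25%. At 28 dpi it went to 8.86% and 5.24% in microglia. In MDMs the split became 9.48% higher and 8.28% lower at 7 dpi, and 5.37% and 4.7% at 28 dpi. Relative to that shift *Ccl6* in microglia also passed 2-fold at 7 dpi (1.18 with DESeq2 factors), *Ccl3* passed it at 28 dpi (1.15) and *Cx3cr1* no longer did (-0.62). The summed level of 16 immediate early and dissociation genes moved with the sham libraries as well. It was at 18633, 4089 and 3850 CPM in vehicle microglia and at 7353, 1738 and 1897 in vehicle MDMs (sham, 7 and 28 dpi), with 14 and 15 of 16 at least 2-fold lower in microglia and 13 of 15 and 14 of 16 in MDMs. The part of this shift in the chemokine values was not tested.

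Between diets most of these genes were within 2-fold in microglia at 7 dpi, and several ligands were lower with PLX5622 at 28 dpi. At 7 dpi 1 of 9 was past 2-fold in microglia, *Ccr2*, lower on 1 UMI, and 0 were higher, against 7.16% and 7.41% of 9287 genes. *Ccl4*, at -0.63 (-0.89 to -0.38), was the only 1 of the 9 whose interval left out 0. At 28 dpi 3 of 8 were at least 2-fold lower, *Ccl9* at -1.28 (-1.82 to -0.78), *Ccl4* at -1.24 (-1.51 to -0.98) and *Ccl2* at -1.15 (-2.22 to -0.26), against 7.76% of 9717 genes. In cells thinned to 1000 UMIs none of these 3 passed 2-fold, at -0.95, -0.76 and -0.77. *Ccl3* and *Ccl6* were at -0.89 and -0.88, and *Ccl6* was at -1.21 in thinned cells. *Ccr1* was higher by 1.62 (0.08–2.88) on 6 UMIs, against 6.35% of genes, and *Cx3cr1* and *Ccl12* were higher by less. The median of the 8 was -0.88, beside -0.00 for all genes.

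In MDMs at 7 dpi *Ccr2* alone passed 2-fold, higher by 2.08 (1.51–2.63), and 0 of 9 were lower, against 4.49% and 4.5% of 10672 genes. However, 24 of its 38 UMIs were in 1 cell, and without the cell richest in it the ratio was 0.70. *Ccl2* at 0.93 (0.68–1.17) likewise had 61 of 162 UMIs in 1 cell and was at 0.28 without it. *Ccl9* and *Ccl4*, at -0.92 and -0.79, were at -1.29 and -1.12 without the richest cells but at 0.30 and 0.24 in thinned cells. At 28 dpi *Ccl9*, *Ccl6* and *Ccl4* were lower in PLX5622 MDMs, at -1.84 (-2.27 to -1.43), -1.71 (-1.91 to -1.51) and -1.07 (-1.20 to -0.94). These 3 of 9 compare with 5.2% of 10261 genes, and 0 higher with 4.79%. *Ccl3* was just under 2-fold lower. The immediate early and dissociation genes were lower in the same comparison, with 7 of 16 at least 2-fold lower and a summed level of 1103 against 1897 CPM, and their part in these differences was not tested. PLX5622 MDMs were at 170 CPM (148–194) for *Ccl6* and 38.9 (28.8–51.2) for *Ccl9* at 28 dpi, close to their own 7 dpi values of 133 (117–152) and 37.2 (28.7–47.4), whereas vehicle MDMs had gone up between those times.

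In monocytes *Ccl3*, *Ccl4*, *Ccl6* and *Ccl12* were lower with PLX5622 at both times, while 11.1% of all genes at 7 dpi and 15.7% at 28 dpi were at least 2-fold lower. *Ccl6* was lower under PLX5622, at 285 CPM (224–358) and 440 (369–520) at 7 and 28 dpi against 1073 and 1005, while *Ccl9* was at 403 and 350 against 502 and 452. With each cell weighted alike the log2 ratio of *Ccl6* at 28 dpi went from -1.19 to -0.39. *Ccl3* rested on 12 and 6 UMIs under PLX5622 and *Ccl4* on 6 and 11. *Ccl12* had 2 UMIs at 7 dpi and 1 at 28 dpi, and its log2 ratios were -3.18 (-6.24 to -1.30) and -5.52 (-10.84 to -3.01). Microglia made up less of the PLX5622 libraries, at 8.80% of UMIs at 7 dpi and 11.6% at 28 dpi against 18.9% and 28.6%, and the levels of *Ccl3*, *Ccl4* and *Ccl6* in ependymal cells went the same way. How much of the monocyte difference this accounts for was not tested. *Ccl2* in monocytes was higher under PLX5622 at 7 dpi, by 1.02 (0.63–1.39), and lower at 28 dpi, at -1.67 (-3.20 to -0.42) on 6 UMIs.

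**Figure D3:**
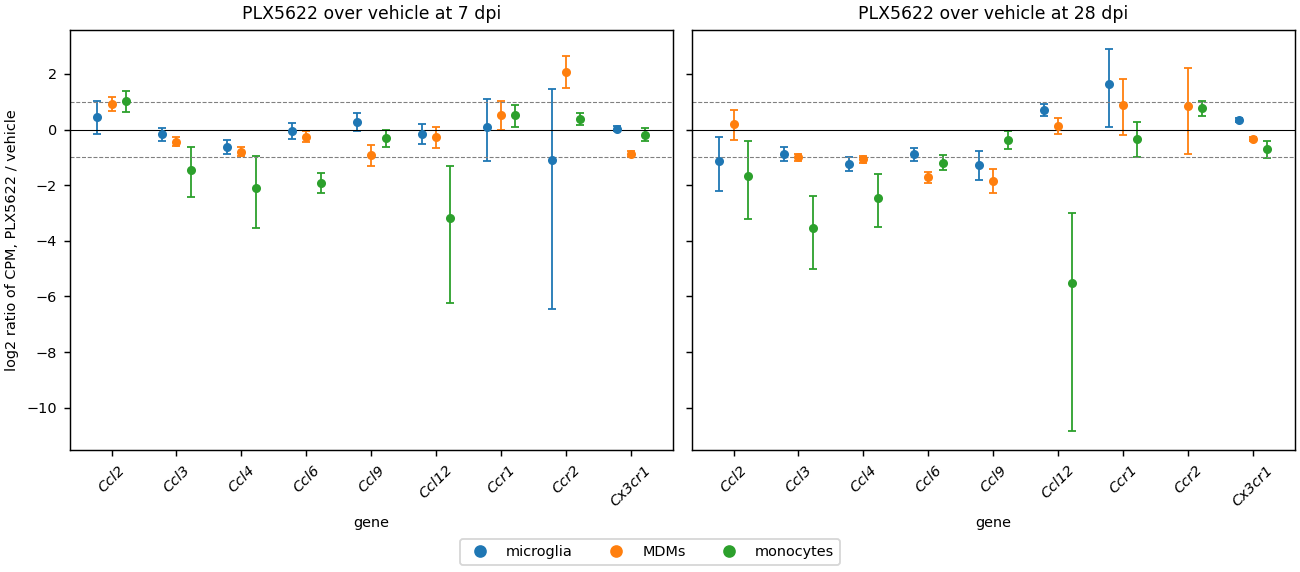
Log2 ratio of CPM, PLX5622 over vehicle, for the 9 genes at 7 dpi (left) and 28 dpi (right) in microglia, MDMs and monocytes, with exact 95% counting intervals and dashed lines at 2-fold. At 28 dpi *Ccl3*, *Ccl4*, *Ccl6* and *Ccl9* lie below 0 in all 3 types, and the widest interval is that of *Ccl12* in monocytes, which rests on 1 UMI.

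Where the RNA of each gene sat depended on how many cells of a type a library held. Microglia carried 74.9% of *Cx3cr1* UMIs in vehicle sham, 44.3% at 7 dpi and 49.5% at 28 dpi, and MDMs 19.7%, 38.4% and 39.4%. MDMs were the main source of *Ccl3* (66.5%, 53.4% and 64.9%) and *Ccl4* (76.2%, 57.4% and 63.8%) in every vehicle library, even at 7 dpi when their level per UMI was below that of microglia. *Ccl12* came mainly from microglia (59.5%, 51.2% and 55.3%) and *Ccr2* from monocytes (70.8%, 75.2% and 62.9%). For *Ccl9* at 28 dpi monocytes gave 7.10% (6.32–7.93) of UMIs in the vehicle library and 54.8% (47.6–61.8) in the PLX5622 library, by exact binomial intervals. Neutrophils gave 38.4% of *Ccr1* in vehicle sham, 25.5% at 28 dpi and 47.4% in the PLX5622 28 dpi library. In the vehicle 7 dpi library other types weighed more, with 373 *Ccr1* UMIs in monocytes, 283 in MDMs and 132 in microglia.

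**Figure D4:**
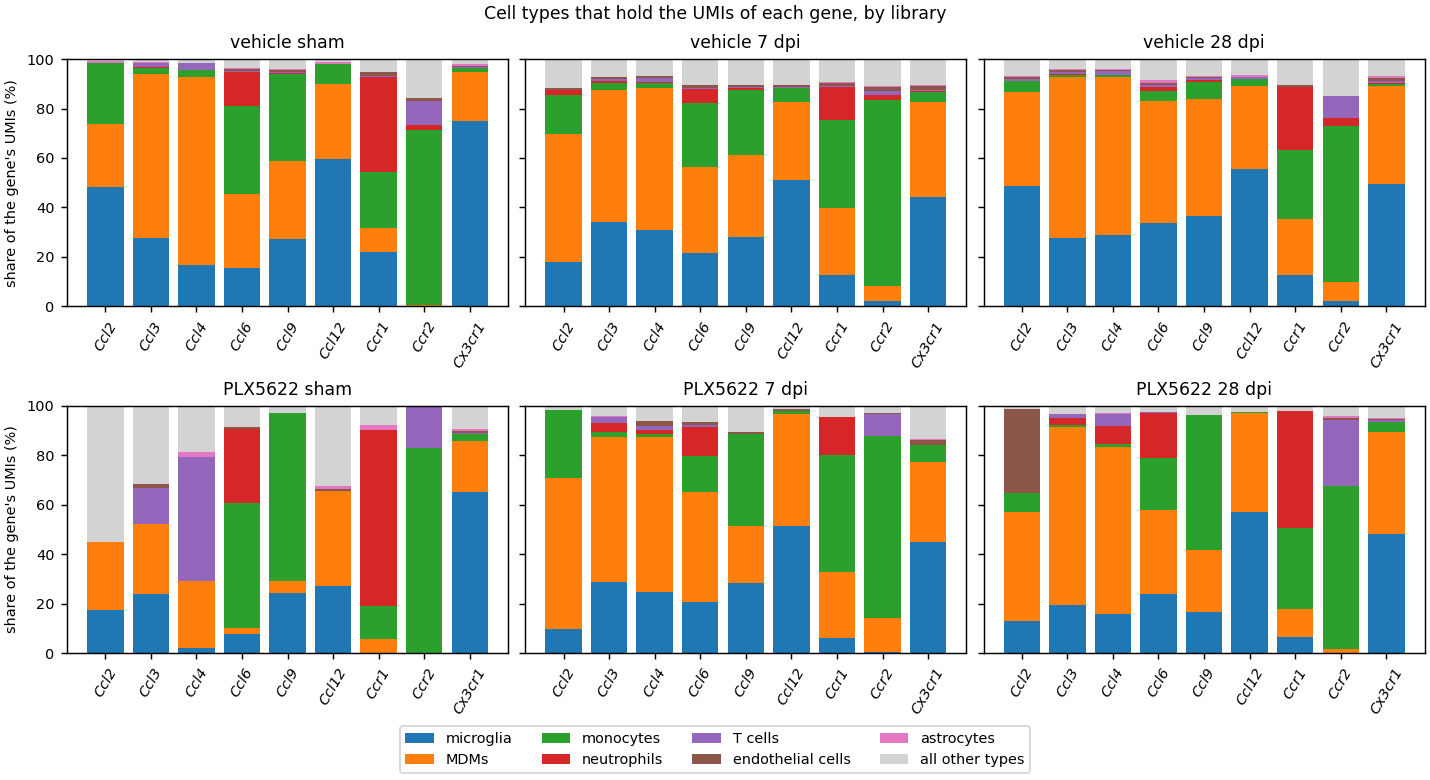
Stacked bars of the share (%) of each gene's UMIs by cell type for the 9 genes, 1 panel per library. *Ccr2* is mostly monocyte RNA in every library, *Cx3cr1* is shared by microglia and MDMs after injury, and the monocyte share of *Ccl9* at 28 dpi is 7.10% with vehicle and 54.8% with PLX5622.

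The share of cells with a UMI was compared after thinning each cell to 1000 UMIs, leaving out shallower cells (126 of 674, 170 of 2154 and 906 of 3974 microglia). *Cx3cr1* was found in 97.6% (96.0–98.7) of vehicle sham microglia, 90.5% (89.1–91.8) at 7 dpi and 84.5% (83.2–85.8) at 28 dpi, and in 98.4%, 95.8% and 92.9% before thinning. The share in ependymal cells, as background, was 0%, 8.23% and 16.1%, where 0 of 60 cells allows a share of up to 5%. *Ccl4* was found in 8.94% (6.69–11.6), 21.1% (19.3–22.9) and 15.5% (14.3–16.8) of microglia, with ependymal cells at 1.67%, 3.16% and 6.20%, and in 34.9%, 13.6% and 23.5% of MDMs. Before thinning these were 13.8%, 31.8% and 21.1% of microglia and 50.3%, 33.3% and 39.0% of MDMs. From 7 to 28 dpi the share of microglia with *Ccl4* went down while its CPM went up, so no order is read from that step. *Ccr2* was found in 40.9% (29.0–53.7), 38.2% (34.2–42.3) and 25.7% (20.4–31.7) of monocytes, with ependymal cells at 0%, 0% and 0.413%, and in 60%, 61.8% and 31.3% before thinning. Median depths of microglia were 3178, 2902.5 and 1686 UMIs.

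**Figure D5:**
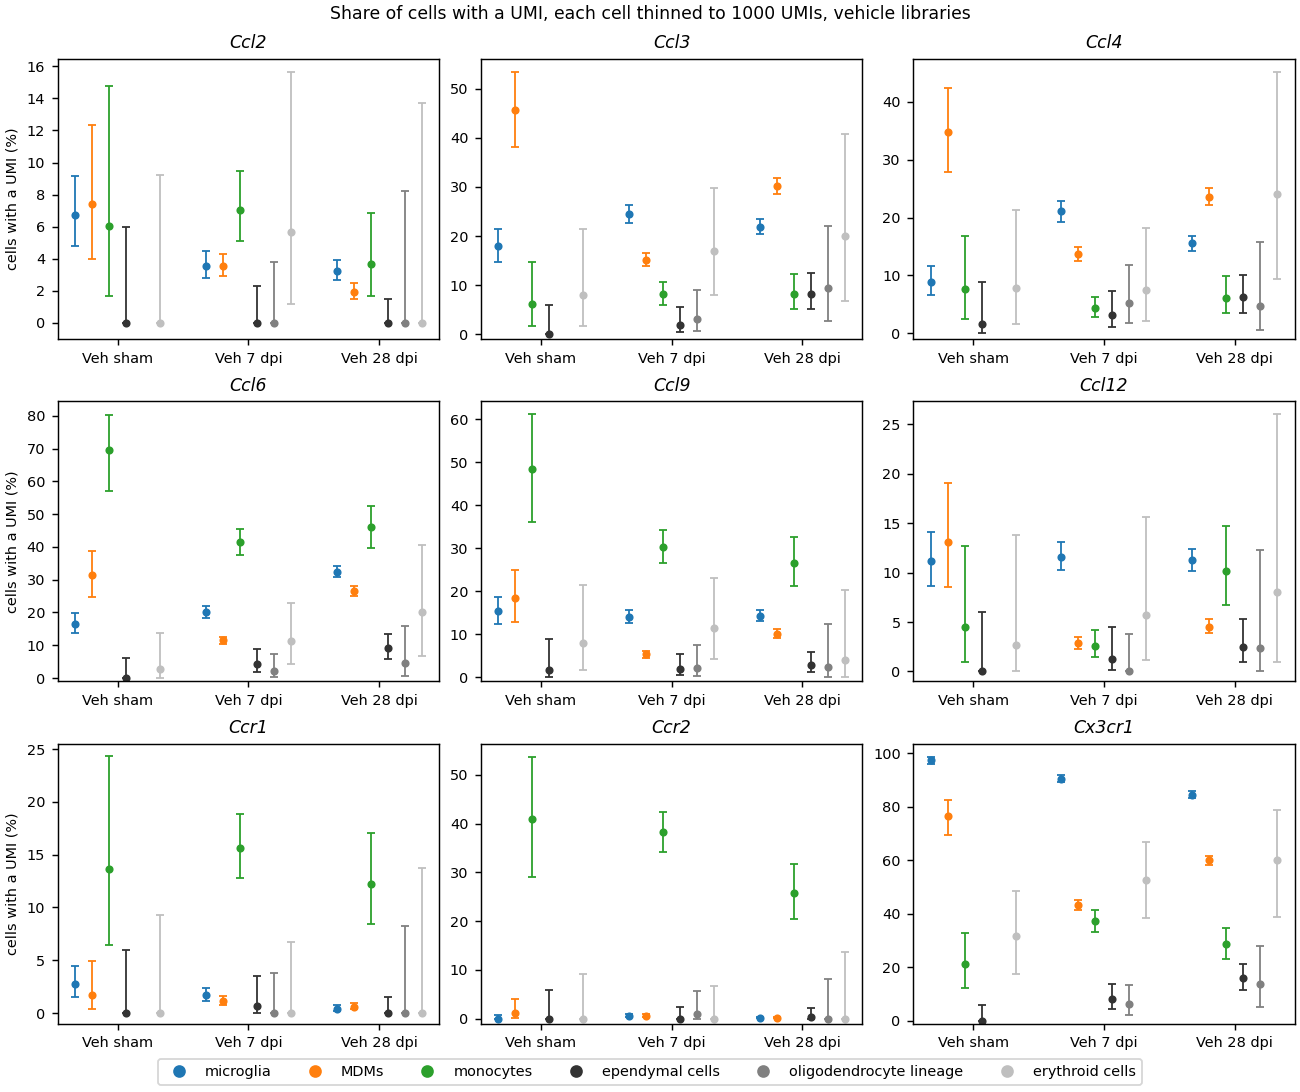
Share (%) of cells with at least 1 UMI of each gene after thinning to 1000 UMIs, by cell type in the 3 vehicle libraries, with exact binomial 95% intervals. *Cx3cr1* is in 84.5% to 97.6% of microglia, against 0% to 16.1% of ependymal cells, and the *Ccl3* and *Ccl4* shares of MDMs are lowest at 7 dpi.

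Neighbouring ligands were often found in the same cell. Among thinned microglia with *Ccl3*, *Ccl4* was found in 21.4%, 45.2% and 39.9% (vehicle sham, 7 and 28 dpi), and among those without it in 6.22%, 13.3% and 8.68%. MDMs showed 61.3%, 41.3% and 48.2% against 12.6%, 8.70% and 12.9%. For *Ccl2* and *Ccl12* in microglia the shares were 27.0%, 38.0% and 45% with *Ccl2* against 9.98%, 10.6% and 10.1% without. For *Ccl6* and *Ccl9* in microglia they were 18.7%, 21.1% and 21.4% against 14.7%, 12.2% and 10.9%. In monocytes *Ccl9* was found in 60.9%, 44.0% and 42.5% of cells with *Ccl6* and in 20.0%, 20.6% and 12.9% of cells without.

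Few other genes of the system had enough UMIs to be compared in microglia or MDMs. Of 13 other ligands in the table, 3 to 6 had enough UMIs in a comparison in microglia or MDMs. *Ccl5*, a CCR1 ligand of T cells, was at 41.0, 51.2 and 146 in vehicle microglia and 403 in PLX5622 28 dpi microglia. T cells held 10.6% of UMIs in the PLX5622 28 dpi library against 2.25% in vehicle 28 dpi. The part of T cell RNA in these microglial values was not tested. In MDMs *Ccl5* was at 120, 21.9 and 42.3, and PLX5622 MDMs had 180 at 7 dpi and 59.8 at 28 dpi. *Ccl7*, another CCR2 ligand, had 0 UMIs in vehicle sham MDMs and was at 23.4 at 7 dpi and 1.66 at 28 dpi, with 90.5 in PLX5622 7 dpi MDMs. *Cx3cl1*, the ligand of CX3CR1, was at 3 UMIs or fewer in microglia of every library, and endothelial cells held it at 42.1, 28.9 and 21.4 in vehicle libraries and at 45.9, 74.3 and 55.9 under PLX5622. Past 2-fold over sham in vehicle microglia were 0 of 4 other ligands at 7 dpi and 2 of 3 at 28 dpi, *Ccl5* and *Ccl24*, both higher. Between those times *Ccl5* was higher and *Ccl7* lower, of 4. Under PLX5622 microglia had 0 of 3 past 2-fold at 7 dpi and 2 of 3 at 28 dpi, *Ccl5* and *Ccl27a*, both higher, the latter on 4 UMIs. In vehicle MDMs *Ccl7* was higher and *Ccl5* lower at 7 dpi, of 5. *Ccl5* was lower at 28 dpi, of 4, and *Ccl7* lower between them, of 6. Under PLX5622 *Ccl5* and *Ccl7* were higher in MDMs at 7 dpi, of 5, and 0 of 4 passed at 28 dpi. The shares of all genes in these comparisons are given above, and with so few ligands no excess over them is read. Among other receptors *Ccrl2* was at least 2-fold lower in MDMs at 28 dpi over sham and *Ccr9* in MDMs between 7 and 28 dpi.

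Across the same 66 combinations of type and library, the genes with the pattern closest to each of the 9 were found by Pearson r of log2(CPM + 1) among 9330 genes. *Cx3cr1* was closest to *Olfml3* (0.91) and *Gpr34* (0.90), *Ccl6* to *Csf2rb* (0.92) and *Nfam1* (0.90), and *Ccl3* to *Fcer1g* (0.90) and *Fyb* (0.88). *Ccl9* was closest to *P2ry6* (0.89) and *Emr1* (0.86), *Ccl4* to *Lcp2* (0.83) and *Fcer1g* (0.79), and *Ccl12* to *C1qa* (0.85) and *Bcl2a1a* (0.85). *Ccr1* was closest to *Mcemp1* (0.86) and *F630028O10Rik* (0.84), *Ccr2* to *Dok2* (0.79) and *Spn* (0.77), and *Ccl2* to *Bcl2a1a* (0.78) and *AI607873* (0.75). Among the 9 themselves *Ccl3* and *Ccl4* were most alike (0.85), and *Ccl12* and *Ccr2* least (0.11). These values rest on combinations that share libraries and are descriptions only.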

How the data were processed

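The authors aligned and counted Chromium 3' libraries with Cell Ranger (3.0.2 in the matrix headers), filtered and clustered the cells in Seurat, and deposited raw counts (UMIs) per gene and cell with cluster numbers, which were used here as deposited. The 9 genes and the gene lists were chosen with earlier results of these data known. UMIs were summed per cluster and library, divided by the summed total, and compared at a 2-fold threshold among genes with at least 20 UMIs. A library at 0 was set to 3 counts. Only types with at least 20 cells were compared. Named genes were the 9, genes of the other ligand and receptor lists with most UMIs or past 2-fold (1 gene is not reported here), and the 2 closest in pattern. Barcodes with under 200 genes (254) had already been left out of the count table, and doublets were left in. Intervals used scipy 1.17.1. The alternatives were TMM (edgeR 4.0.16) and DESeq2 1.42.0 scaling, equal cell weights, thinning to 1000 UMIs, at least 500 genes per cell, removal of 1256 doublets called by Scrublet (scanpy 1.11.5), gene filters of 1 and 100 UMIs and a floor of 1 count. Leaving out the cell richest in a gene was added after seeing the data. Python 3.11.15 and R 4.3.3 were used. Statistics were tested on simulated counts. Gene positions are from GENCODE vM21. The bulk samples were not analysed here.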

Additional observations from a re-analysis of the deposited data

Results flagged for a closer look

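*Ccl2* in monocytes moved in opposite directions under PLX5622 at the 2 times. Its log2 ratio to vehicle was 1.02 at 7 dpi and -1.67 at 28 dpi, 2.68 apart. The difference was not tested, and the PLX5622 values rest on 73 UMIs (24 in 1 cell) and 6 UMIs.

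*Ccl4* at 7 dpi over vehicle sham was higher in microglia (1.59) and lower in MDMs (-1.85), a gap of 3.44. The difference was not tested. It involved 373 and 3613 UMIs in microglia and 1715 and 6683 in MDMs.

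*Ccr2* under PLX5622 at 7 dpi was at -1.11 in microglia and 2.08 in MDMs, a difference of -3.19, which was not tested. The microglial value rests on 1 UMI, and 24 of the 38 UMIs in MDMs were in 1 cell.

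Barcodes left out of the vehicle sham count table still held 13 UMIs of the 9 genes.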

How the results depend on the processing

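Of 133 log2 ratios of the 9 genes in microglia, MDMs and monocytes, 53 were past 2-fold, and 50 of these had the same sign under every alternative that gave a value (10 for most ratios and 8 or 9 for those with few UMIs), with 28 past 2-fold under each. Of the other 80, 29 had another sign under some alternative. The 3 that reversed were *Ccr2* in microglia under PLX5622 at 7 dpi (0.77 without the cell richest in it, which leaves 0 UMIs and so the 3-count floor), *Ccr2* in MDMs at 7 dpi over sham (-1.52 in thinned cells) and *Ccl12* in monocytes at 7 dpi over sham (0.91 without the sham cell that held 68 of 77 UMIs). The number of genes past 2-fold changed by more than 1.5 times as follows. Thinning gave 1 instead of 2 in microglia at 7 dpi over sham, 0 instead of 1 and 1 instead of 4 under PLX5622 at 7 and 28 dpi, and 2 instead of 1 in MDMs under PLX5622 at 7 dpi. A filter of 100 UMIs gave 1 instead of 2 in microglia at 7 dpi over sham and 0 instead of 1 under PLX5622 at 7 dpi, since it tests fewer genes. TMM and DESeq2 factors each gave 2 instead of 4 in MDMs at 28 dpi over sham (and, at just 1.5 times, 3 instead of 2 in microglia at 7 dpi over sham). Equal cell weights gave 0 instead of 1 in MDMs under PLX5622 at 7 dpi and 5 instead of 3 at 28 dpi. Without the cell richest in a gene the counts were 2 instead of 1 in microglia under PLX5622 at 7 dpi, and 3 instead of 1 and 5 instead of 3 in MDMs at 7 and 28 dpi. Causes other than these constructions were not tested. At least 500 genes per cell, removal of doublets, a filter of 1 UMI and a floor of 1 count moved none of the 10 counts by that much. No paired analysis was possible because each condition is 1 library. Depth limits *Ccr1* and *Ccr2* in microglia and MDMs and every value of PLX5622 sham, where 29 microglia and 9 MDMs were sequenced.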
